A study of Mus musculus with 5 samples.

Results

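The BCL2 family was described here through 10 mouse genes, out of 49315 genes with a transcript listed in every library. Listed transcripts can be at 0 FPKM, and 20697 of these genes were above 0 in at least 1 library. The 10 comprise 6 pro-survival genes (Bcl2, Bcl2l1, Mcl1, Bcl2a1a, Bcl2a1b and Bcl2a1d), the effectors Bax and Bak1, and the BH3-only genes Bcl2l11 and Bad. They were chosen by name with earlier results of these data known, and the rule itself used none of their values. RNA sequencing had been done on bone marrow-derived macrophages of wild-type C57BL/6 mice, grown for 6 days and 96% positive for F4/80 and CD11b per the labels. In 3 libraries (IL4+CBR-5884, replicates 3, 4 and 5) the cells had received 30 µM CBR-5884 before 10 ng/ml IL-4 for 24 h. In the other 2 libraries (IL4+solvent, replicates 3 and 5) solvent had been given before the same IL-4. CBR-5884 is an inhibitor of PHGDH, the enzyme that diverts a glycolytic intermediate into serine synthesis, and IL-4 drives the alternative (M2) macrophage state. All cells had IL-4, so no value below refers to cells without it.

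BCL2 proteins decide at the mitochondrial outer membrane whether a cell enters the intrinsic pathway of apoptosis. Bax and Bak1 form the pores that release cytochrome c. The pro-survival proteins hold them in check, and BH3-only proteins bind the pro-survival proteins, or the effectors, when a cell is stressed. In macrophages the short-lived protein MCL1 and the NF-κB target BCL2A1 are known as survival factors, and Bcl2a1 is present as several near-identical copies in the mouse genome.

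Levels are given as FPKM, a read density corrected for transcript length and for the size of the library, summed over the transcripts of a gene. The ratio of coverage to FPKM implies 30230000 to 30700000 fragments in each CBR-5884 library and 28310000 to 28850000 in each solvent library. All 7 macrophage markers checked were at 1 FPKM or more, with summed levels of 9728 to 13062 FPKM under CBR-5884 and 10992 to 13073 FPKM under solvent. No marker of T cells, B cells, erythroid cells or mast cells and basophils averaged 1 FPKM, and Cd3d, Cd3e and Cd3g were listed at 0 in all 5 libraries. Of 8 neutrophil markers 2 averaged at least 1 FPKM, and Ly6g was listed at 0. Their summed level was 10.5 to 13.6 FPKM under CBR-5884 and 10.9 to 22.2 FPKM under solvent. These ranges overlapped, and S100a8, Elane and Mpo are not given singly here. Camp, Ltf and Ngp lay lower in every CBR-5884 library, all at no more than 1.56 FPKM, and S100a9 averaged 1.28 FPKM under CBR-5884 and 5.92 FPKM under solvent. These genes are only a part of the neutrophil list, and the summed level was not lower in every CBR-5884 library. Of 6 dendritic cell markers 1 averaged at least 1 FPKM, Itgax, which macrophages also express. Of 5 fibroblast markers 2 did, and the summed level was 10.8 to 17.1 FPKM under CBR-5884 and 17.9 to 18.9 FPKM under solvent. The part of these markers in the results was not tested. These are bulk libraries, so fewer cells of a type and less RNA per cell cannot be told apart.

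None of the 10 members passed the test between CBR-5884 and solvent. In the limma fit on log2(FPKM + 1), with Benjamini-Hochberg adjustment over 10776 genes, 0.223% of all genes tested passed at an adjusted p under 0.05. Of these, 5 genes (0.0464%) were higher and 19 genes (0.176%) lower. At an unadjusted p under 0.05, 1 member was higher and 2 were lower, against 7.24% higher and 12.4% lower of all genes tested (780 and 1336 genes, 19.6% together). That background split depended on scaling: it was 1036 higher and 1061 lower after median-ratio scaling, and 1163 higher and 945 lower after quantile normalization. For 1 member all CBR-5884 libraries lay above all solvent libraries, and for 3 they lay below, against 16.6% and 24.9% of all genes tested. Groups that did not overlap were thus about as frequent among the members as among all genes, where the share was 41.5%. The median log2 fold change was -0.06 over the 10 members and -0.03 over all genes tested.

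**Figure D1:**
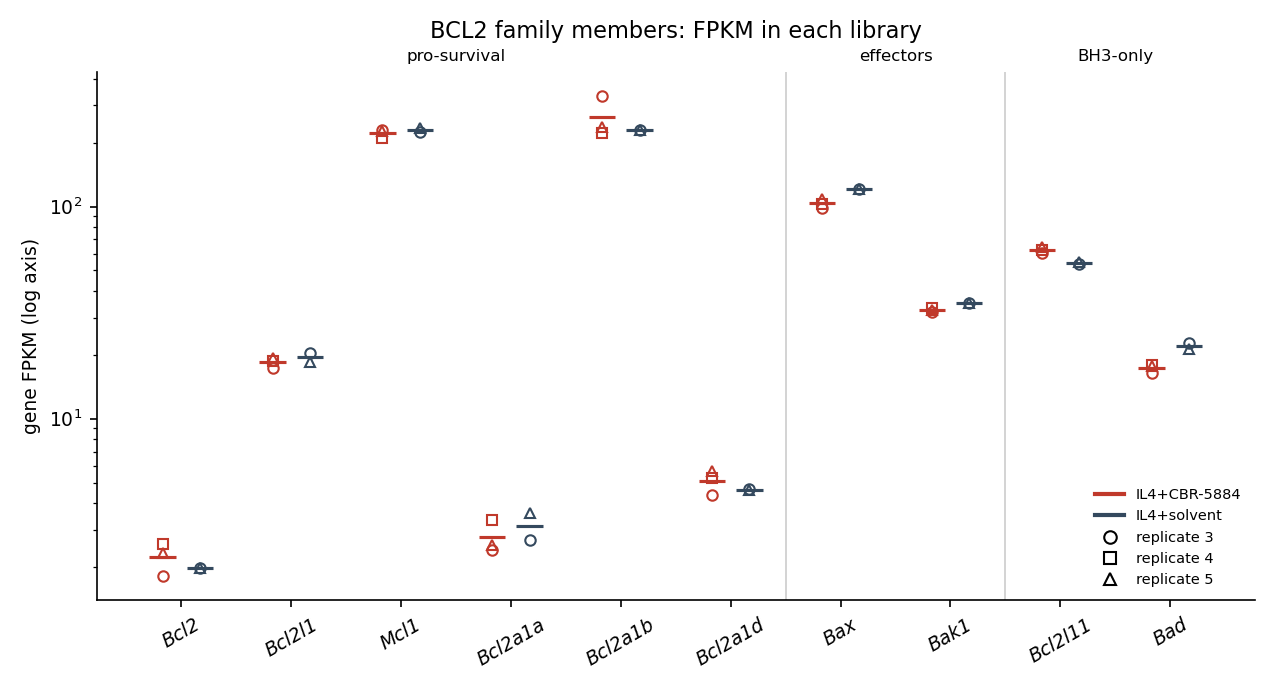
FPKM of each member in each library on a log axis, with the CBR-5884 libraries left of the solvent libraries and a bar at each group mean (n = 3 and n = 2). Bax, Bak1 and Bad lie lower and Bcl2l11 lies higher in every CBR-5884 library than in both solvent libraries. Of all genes tested, 24.9% lie lower and 16.6% higher in this way. Bcl2a1b stands high in CBR-5884 replicate 3 alone.

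Mcl1 and Bcl2a1b were the most abundant of the 10, and their ranges overlapped within both groups. Bax, Bcl2l11 and Bak1 followed, then Bcl2l1 and Bad, and Bcl2a1d, Bcl2a1a and Bcl2 were lowest. Under CBR-5884 the ranges of Bcl2l1 and Bad overlapped, as did those of Bcl2a1a and Bcl2; under solvent neither pair did. Mcl1, the short-lived pro-survival protein gene (GRCm38, chromosome 3, 95658788 to 95663176, plus strand), was at 229.7, 209.8 and 227.9 FPKM under CBR-5884 and at 225.4 and 235.7 FPKM under solvent. The groups overlapped, and the log2 fold change was -0.05 (limma adjusted p = 0.658, SE 0.06). Its 95% interval was -0.21 to 0.11. Mcl1-201 held all of its FPKM, and Mcl1-202 was listed at 0 in all 5 libraries. Assembled transcripts of 80 nt in CBR-5884 replicate 4 and of 76 nt in solvent replicate 3 lay within the gene with 11271 and 75423 FPKM. They were close to the read length of 75 bp and were left out.

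The Bcl2a1 genes encode the pro-survival protein A1, and their copies are so alike that reads may be split among them. Bcl2a1a (chromosome 9, 88956900 to 88962419, plus strand), Bcl2a1b (89199209 to 89207827, plus strand) and Bcl2a1d (88723285 to 88731914, minus strand) each have 519 nt of coding sequence. Bcl2a1a and Bcl2a1b differ at 11 of these positions (97.9% identical), Bcl2a1a and Bcl2a1d at 7 (98.7%), and Bcl2a1b and Bcl2a1d at 6 (98.8%). The first 180 coding bases are shown because no other stretch of as many whole codons holds more differences. Capitals mark the 7 positions at which the copies are not all the same (GENCODE M21 transcripts, GRCm38, each in its own reading direction).
Bcl2a1a: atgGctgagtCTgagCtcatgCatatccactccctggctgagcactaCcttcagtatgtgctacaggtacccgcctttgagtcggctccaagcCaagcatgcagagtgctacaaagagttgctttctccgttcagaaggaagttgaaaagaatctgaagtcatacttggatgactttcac
Bcl2a1b: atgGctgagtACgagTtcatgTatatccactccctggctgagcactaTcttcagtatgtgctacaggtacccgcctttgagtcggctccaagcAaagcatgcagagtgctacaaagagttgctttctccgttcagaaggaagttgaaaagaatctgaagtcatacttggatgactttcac
Bcl2a1d: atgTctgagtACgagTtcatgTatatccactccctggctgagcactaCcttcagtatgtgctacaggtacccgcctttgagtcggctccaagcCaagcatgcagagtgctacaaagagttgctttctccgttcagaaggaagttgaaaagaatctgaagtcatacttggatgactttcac

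Of the 75-nt windows along each transcript, the length of 1 read, 55.2% of Bcl2a1a, 43.5% of Bcl2a1b and 67.6% of Bcl2a1d occur unaltered in another copy. How reads from such windows were placed is not given in the sources used here, so the level of each copy is uncertain. The plot of these windows along the transcripts shows them in blocks separated by stretches found in 1 copy alone.

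**Figure D2:**
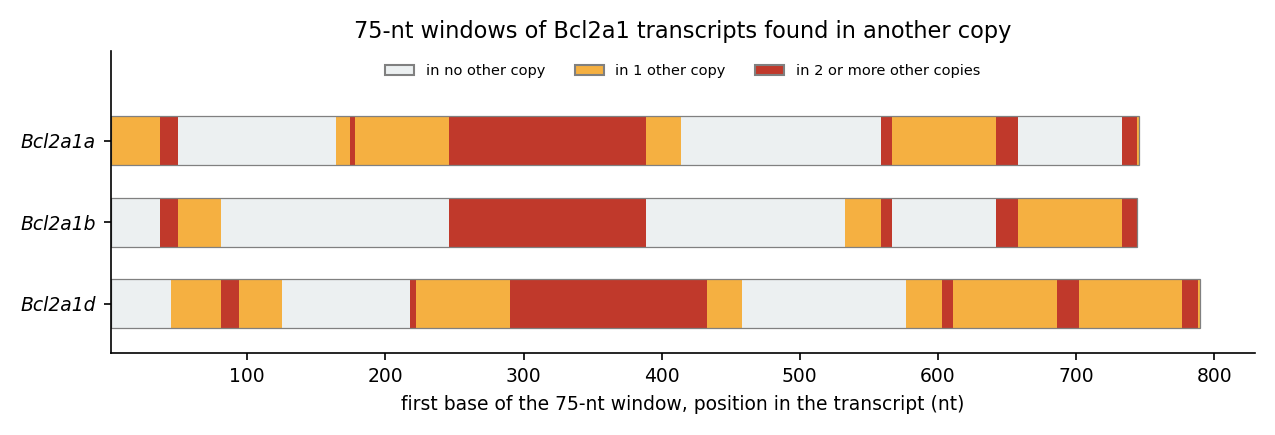
Each bar is a Bcl2a1 transcript, and colour gives whether the 75-nt window starting at that position (nt, horizontal axis) occurs in no other, 1 other, or 2 or more other copies. In Bcl2a1d 533 of 789 windows are shared, in Bcl2a1a 411 of 745, and in Bcl2a1b 323 of 743.

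Almost all of the signal was assigned to Bcl2a1b. It was at 333.7, 222.3 and 236.4 FPKM under CBR-5884 and at 230.9 and 230.0 FPKM under solvent. CBR-5884 replicate 3 stood far above the other 4 libraries, and the groups overlapped. In that library 192.6 FPKM belonged to the reference transcript. The other 141.1 FPKM belonged to an assembled transcript of 321 nt that joins a 75-nt exon inside the intron (89204458 to 89204532) to the last exon. Solvent replicate 5 also had an assembled transcript with an exon there (89204487 to 89204532), 288 nt long and at 0 FPKM. The log2 fold change was 0.17 (limma adjusted p = 0.654, SE 0.19, 95% interval -0.34 to 0.69). It was -0.09 with reference transcripts alone and -0.01 without CBR-5884 replicate 3, so the direction rests on that library. The exons of Bcl2a1b also overlap those of Gm29094 by 401 nt on the same strand.

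The other copies were low. Bcl2a1a was at 2.41, 3.34 and 2.53 FPKM under CBR-5884 and at 2.67 and 3.58 FPKM under solvent. Bcl2a1d was at 4.37, 5.27 and 5.64 FPKM under CBR-5884 and at 4.64 and 4.59 FPKM under solvent. In both the groups overlapped. The log2 fold changes were -0.13 (SE 0.17) for Bcl2a1a and 0.11 (SE 0.11) for Bcl2a1d, with limma adjusted p = 0.685 and 0.62. Without solvent replicate 5 that of Bcl2a1a was 0.03. When the Bcl2a1 genes were summed, Bcl2a1c included, the level was 341.3, 232.8 and 244.9 FPKM under CBR-5884 and 238.8 and 239.6 FPKM under solvent. The sum had a log2 fold change of 0.17 (limma adjusted p = 0.643), and of -0.09 with reference transcripts alone (limma adjusted p = 0.702).

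Bcl2l1, which encodes the pro-survival protein BCL-XL (chromosome 2, 152780668 to 152831728, minus strand), was at 17.4, 18.8 and 19.3 FPKM under CBR-5884 and at 20.4 and 18.5 FPKM under solvent. The groups overlapped. The log2 fold change was -0.07 (limma adjusted p = 0.641, SE 0.07), and it was 0.00 without solvent replicate 3. With reference transcripts alone it was -0.45 (limma adjusted p = 0.627), and with the most abundant one -0.57 (limma adjusted p = 0.593). Bcl2l1-201 held 79.9%, 73.5% and 29.5% of the gene's FPKM under CBR-5884 and 82.6% and 81.9% under solvent. In CBR-5884 replicate 5 an assembled transcript with another first exon (152830187 to 152830310) held 57.3%, or 11.1 FPKM, in its place. It shares the last exons of Bcl2l1-201, and the summed level of that library lay within the range of the others.

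Bcl2, the founding member of the family (chromosome 1, 106538178 to 106714274, minus strand), was the least abundant of the 10 in every library. It was at 1.81, 2.57 and 2.32 FPKM under CBR-5884 and at 1.98 and 1.98 FPKM under solvent. The solvent libraries lay inside the range of the CBR-5884 libraries. The log2 fold change was 0.11 (limma adjusted p = 0.68, SE 0.14). In CBR-5884 replicate 4, 0.65 FPKM came from an assembled transcript that lacks the first exon of Bcl2-201. D630008O14Rik, annotated as antisense, overlaps 558 nt of the Bcl2 exons, and how the authors treated strand is not given in the sources used here.

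Both effectors were lower in each of the CBR-5884 libraries than in both solvent libraries, without passing the test. Of all genes tested, 24.9% lay lower in this way. Bax (chromosome 7, 45461697 to 45466898, minus strand), whose protein moves from the cytosol to mitochondria, was at 99.0, 103.2 and 108.2 FPKM under CBR-5884 and at 121.7 and 121.1 FPKM under solvent. The log2 fold change was -0.23 (SE 0.05, 95% interval -0.37 to -0.09, unadjusted p = 0.00992, limma adjusted p = 0.153). Bak1 (chromosome 17, 27019810 to 27029009, minus strand), whose protein resides in the mitochondrial membrane, was at 31.7, 33.3 and 32.7 FPKM under CBR-5884 and at 35.0 and 35.2 FPKM under solvent. Its log2 fold change was -0.11 (SE 0.04, 95% interval -0.23 to 0.01, limma adjusted p = 0.293). Bax exceeded Bak1 in every library, with ratios of 3.12, 3.10 and 3.31 under CBR-5884 and 3.48 and 3.44 under solvent. The exons of Bax overlap 192 nt of Gm45808 on the same strand. All of the Bak1 FPKM lay in 1 reference transcript, whose exons overlap those of Ggnbp1 on the opposite strand.

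The Bax files distinguish 2 starts of the last exon. Bax-201 has 192 codons, and in Bax-205 the last exon starts 4 nt further in and the coding sequence has 171 codons. The junction is shown because it separates these transcripts. Each sequence runs 5′ to 3′ on the minus strand of chromosome 7 from 30 nt before the last exon, and capitals mark the 4 nt found in Bax-201 alone (GENCODE M21, GRCm38).
Bax-201: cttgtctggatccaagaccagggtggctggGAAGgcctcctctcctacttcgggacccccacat
Bax-205: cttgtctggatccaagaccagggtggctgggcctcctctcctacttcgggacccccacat

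Transcripts with the junction of Bax-205 were at 21.0, 23.5 and 23.0 FPKM under CBR-5884 and at 25.6 and 24.9 FPKM under solvent. They held 21.2%, 22.8% and 21.2% of the Bax FPKM under CBR-5884 and 21.0% and 20.6% under solvent. About the same share was thus assigned to the shorter exon in all 5 libraries. In solvent replicate 3 this FPKM was in Bax-205 itself. In the other 4 libraries Bax-205 was listed at 0, and the junction was in an assembled transcript that also holds 418 to 455 nt of the first intron and lacks the first exon. Solvent replicate 3 had an assembled transcript with first-intron bases too (25.4 FPKM, 20.8%), but with the longer last exon. The share of the shorter exon thus cannot be told apart from that of first-intron bases in the other 4 libraries. Transcripts with the longer last exon were at 78.0, 79.7 and 85.2 FPKM under CBR-5884 and at 96.1 and 96.2 FPKM under solvent. Both forms were lower in every CBR-5884 library. Because the split of the estimates differs in solvent replicate 3, Bax-201 alone was at 70.7 FPKM there and at 96.2 FPKM in solvent replicate 5, and its log2 fold change was -0.03 (limma adjusted p = 0.942).

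Among the BH3-only members, Bcl2l11 lay higher and Bad lower in each of the CBR-5884 libraries. Of all genes tested, 16.6% lay higher and 24.9% lower in this way. Bcl2l11 encodes BIM, which binds all pro-survival proteins and can activate Bax and Bak1 (chromosome 2, 128126038 to 128162547, plus strand). It was at 60.5, 62.4 and 64.3 FPKM under CBR-5884 and at 53.7 and 55.0 FPKM under solvent. The log2 fold change was 0.20 (SE 0.05, 95% interval 0.07 to 0.32, unadjusted p = 0.0117, limma adjusted p = 0.161). Bad, whose protein is kept inactive by phosphorylation downstream of growth factors (chromosome 19, 6941861 to 6951899, plus strand), was at 16.5, 18.0 and 17.8 FPKM under CBR-5884 and at 22.7 and 21.2 FPKM under solvent. Its log2 fold change was -0.32 (SE 0.06, 95% interval -0.49 to -0.15, unadjusted p = 0.0056, limma adjusted p = 0.133), the smallest adjusted p of the 10. The groups did not overlap in either gene, and neither difference passed the adjusted threshold.

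**Figure D3:**
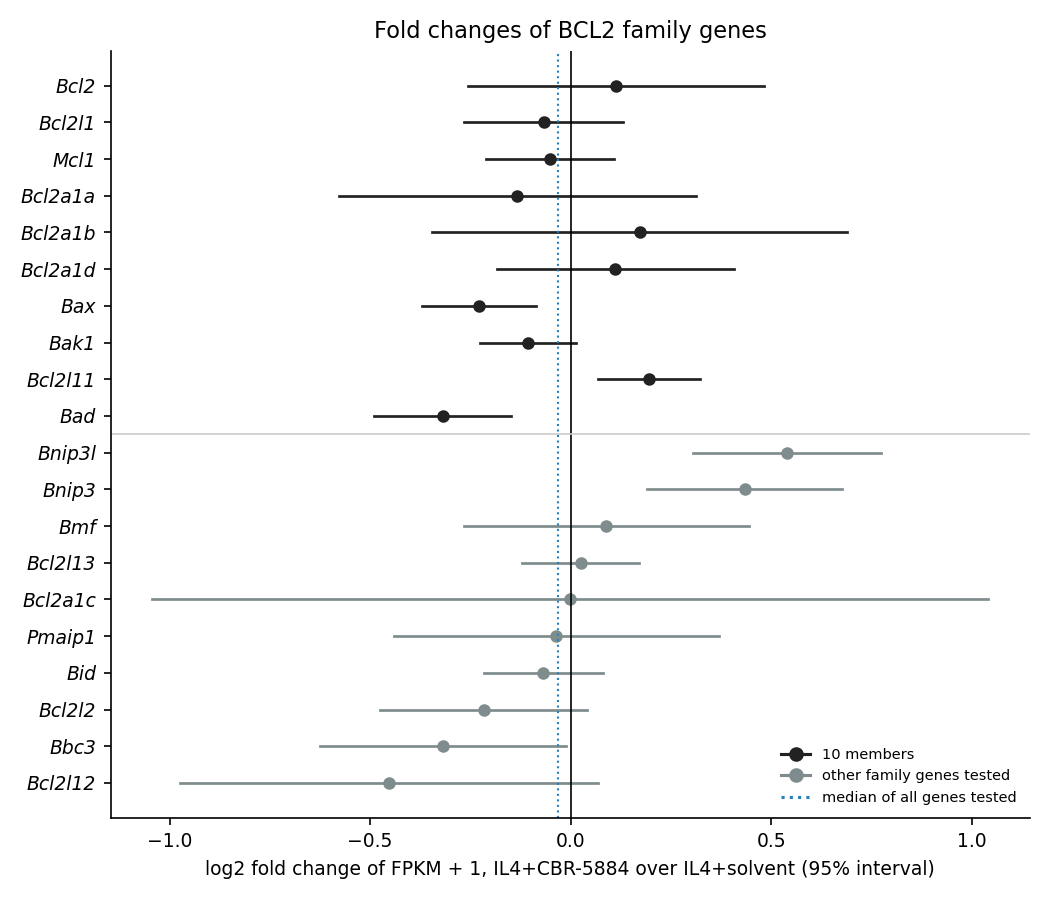
Log2 fold change of FPKM + 1, CBR-5884 over solvent, with the 95% interval of limma for the 10 members (dark) and the 10 other family genes tested (grey), and the median of all genes as a dotted line. The intervals of Bax (-0.37 to -0.09), Bcl2l11 (0.07 to 0.32) and Bad (-0.49 to -0.15) leave out 0, as do those of Bnip3l (0.30 to 0.77), Bnip3 (0.19 to 0.68) and Bbc3 (-0.62 to -0.01), and none of the genes shown passed after adjustment.

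BIM is made in forms known as EL, L and S, which differ in the first coding exon. The last 300 nt of that exon (chromosome 2, 128128715 to 128129014, plus strand, GENCODE M21, GRCm38) is shown because the assembled transcripts differ in it. Capitals mark the 168 nt (56 codons) that are removed in the L pattern, and the S pattern lacks these and the 90 nt (30 codons) after them.
Bcl2l11 exon: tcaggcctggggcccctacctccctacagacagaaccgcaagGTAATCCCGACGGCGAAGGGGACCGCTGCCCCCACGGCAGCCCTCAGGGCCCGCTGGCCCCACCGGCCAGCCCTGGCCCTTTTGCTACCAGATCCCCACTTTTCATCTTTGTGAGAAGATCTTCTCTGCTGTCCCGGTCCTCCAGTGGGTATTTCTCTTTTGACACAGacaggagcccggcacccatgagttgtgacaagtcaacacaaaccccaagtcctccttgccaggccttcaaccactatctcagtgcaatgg

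The full exon was the main form in every library. It is carried by Bcl2l11-205, which has 196 codons and matches EL. It was at 43.2, 36.6 and 46.2 FPKM under CBR-5884 and at 34.0 and 36.5 FPKM under solvent. CBR-5884 replicate 4 lay less than 0.1 FPKM above solvent replicate 5, so the groups were barely apart in this form. Its share of the gene was 71.4%, 58.6% and 71.9% under CBR-5884 and 63.4% and 66.4% under solvent, and the groups overlapped. With reference transcripts alone the log2 fold change was 0.24 (unadjusted p = 0.108, limma adjusted p = 0.462).

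The shorter forms were found in assembled transcripts only. The annotated L transcript, Bcl2l11-203 with 140 codons, and the annotated S transcripts, Bcl2l11-201 and Bcl2l11-204 with 110 codons, were listed at 0 in all 5 libraries. Assembled transcripts with the L pattern were at 17.3 FPKM in CBR-5884 replicate 3, 10.8 FPKM in CBR-5884 replicate 4, 9.0 FPKM in solvent replicate 3 and 8.57 FPKM in solvent replicate 5. Assembled transcripts with the S pattern were at 18.1 FPKM in CBR-5884 replicate 5, 10.7 FPKM in solvent replicate 3 and 9.90 FPKM in solvent replicate 5. Both solvent libraries thus held both shorter patterns, and each CBR-5884 library held 1 of them. In CBR-5884 replicate 4 a further 15.1 FPKM was in an assembled transcript that does not include the start codon. Transcripts were assembled in each library on its own, so a pattern that is not listed in a library is not shown to be missing from it.

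**Figure D4:**
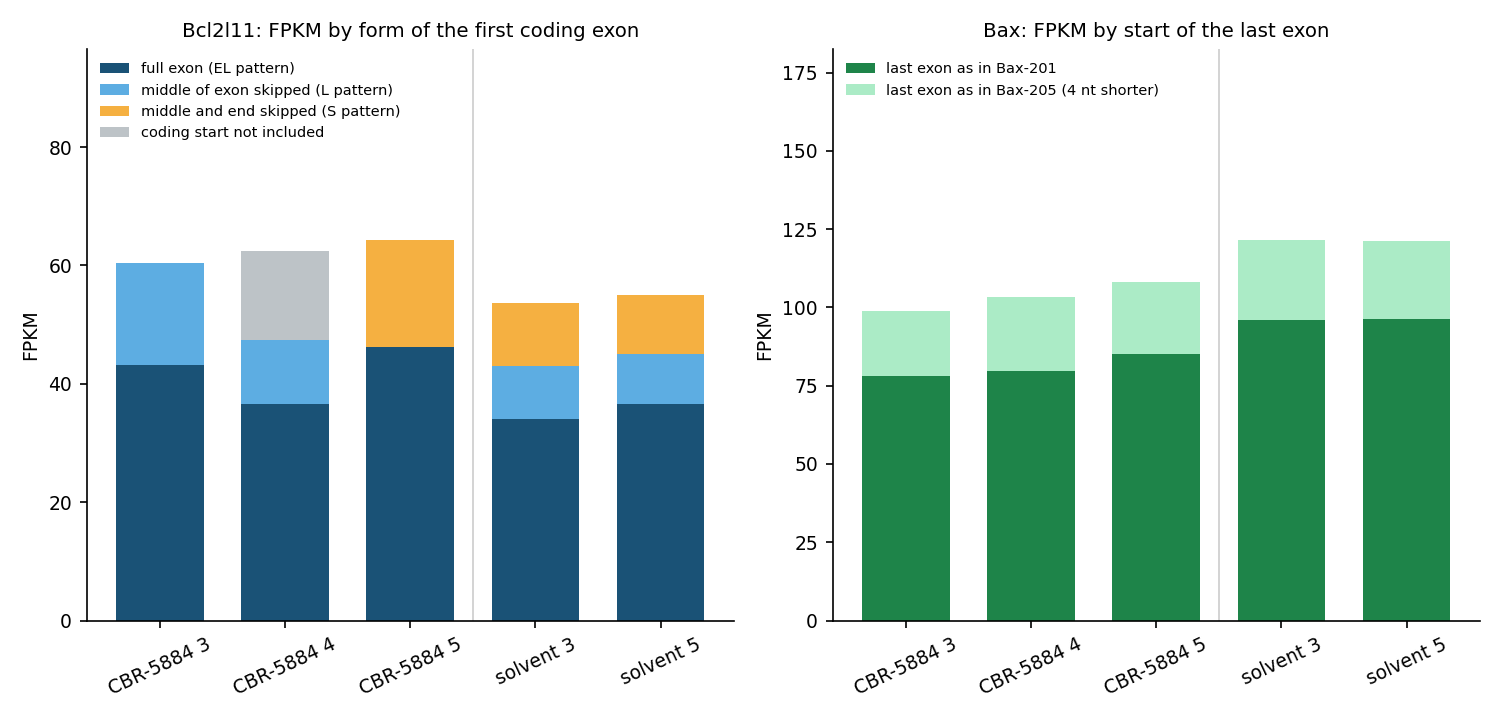
Stacked bars give the FPKM of Bcl2l11 (left) by form of its first coding exon and of Bax (right) by the start of its last exon, in each of the 3 CBR-5884 and 2 solvent libraries. The full exon of Bcl2l11 holds 58.6% to 71.9% in every library, while the assembled shorter forms vary between libraries. The shorter last exon of Bax is assigned 20.6% to 22.8%.

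Bad was split between Bad-202 and Bad-201. Bad-202, with 162 codons, was at 16.5, 13.7 and 14.6 FPKM under CBR-5884 and at 17.4 and 17.0 FPKM under solvent, and the groups did not overlap. Bad-201, with 204 codons and an earlier first exon, was listed at 0 in CBR-5884 replicate 3, at 4.32 and 3.23 FPKM in CBR-5884 replicates 4 and 5, and at 5.35 and 4.22 FPKM under solvent. For Bad-202 alone the log2 fold change was -0.20 (limma adjusted p = 0.498). The exons of Bad overlap 524 nt of Gpr137 on the opposite strand, whose part in the value was not tested.

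Ratios within a library do not depend on scaling between libraries. The summed pro-survival FPKM over the summed effector FPKM was 4.51, 3.39 and 3.51 under CBR-5884 and 3.10 and 3.16 under solvent. With reference transcripts alone it was 4.09, 4.09 and 4.10 under CBR-5884 and 3.70 and 3.76 under solvent. The groups were apart in both, but not with the most abundant reference transcript of each gene, where solvent replicate 3 was at 4.56. Bcl2l11 over Bax was 0.611, 0.605 and 0.595 under CBR-5884 and 0.442 and 0.454 under solvent. Bcl2l11 over Bad was 3.67, 3.47 and 3.61 under CBR-5884 and 2.36 and 2.59 under solvent. Bcl2l11 over Mcl1 was 0.263, 0.297 and 0.282 under CBR-5884 and 0.238 and 0.233 under solvent. These ratios were given no test, and 3 libraries against 2 allow no exact permutation p below 0.1. The differences of Bax, Bak1, Bcl2l11 and Bad given above enter these ratios, so the ratios are not separate evidence. In each of the pro-survival genes the groups overlapped.

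Of 16 other BCL2 family and BH3-only genes 10 were tested, and none passed (limma, 0 higher and 0 lower). At an unadjusted p under 0.05, 2 were higher and 1 was lower, against 7.24% higher and 12.4% lower of all genes tested. The median log2 fold change was -0.02. Bnip3l and Bnip3, mitophagy receptors that mark mitochondria for removal and are induced by hypoxia, lay higher in all CBR-5884 libraries. So did 16.6% of all genes tested. Bcl2l13, another mitophagy receptor of the list, was at 6.05, 6.25 and 6.02 FPKM under CBR-5884 and at 6.10 and 5.87 FPKM under solvent, with overlapping groups. Bnip3l was at 70.7, 68.7 and 60.3 FPKM under CBR-5884 and at 47.1 and 43.8 FPKM under solvent (log2 fold change 0.54, limma adjusted p = 0.121, SE 0.09). Bnip3 was at 12.5, 10.8 and 11.1 FPKM under CBR-5884 and at 7.71 and 8.75 FPKM under solvent (log2 fold change 0.43, limma adjusted p = 0.139, SE 0.09). Their intervals, 0.30 to 0.77 and 0.19 to 0.68, lay farther from 0 than that of any of the 10 members.

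Bbc3, the p53 target that encodes PUMA, was at 6.54, 5.93 and 6.98 FPKM under CBR-5884 and at 7.46 and 9.25 FPKM under solvent (log2 fold change -0.32, limma adjusted p = 0.247, SE 0.12). Bcl2l2, which encodes pro-survival BCL-W, averaged 8.73 ± 0.93 FPKM under CBR-5884 and 10.3 ± 0.0099 FPKM under solvent (SD, n = 3 and n = 2), and its groups did not overlap. Bcl2l12 averaged 5.17 ± 1.20 FPKM under CBR-5884 and 7.40 ± 1.31 FPKM under solvent, with overlapping groups. The log2 fold changes of the remaining tested genes were -0.07 for Bid, -0.04 for Pmaip1, 0.09 for Bmf, 0.02 for Bcl2l13 and 0.00 for Bcl2a1c. Bok, Bik, Hrk and Bcl2l14 were under the filter of a mean of 1 FPKM, and Bcl2l10 and Bcl2l15 were listed at 0 in all 5 libraries.

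No gene passed (limma) in 6 lists of the surrounding pathway, grouped by function. At an unadjusted p under 0.05 the counts were 1 higher and 3 lower for the apoptosome list, 2 and 0 for turnover, 0 and 1 for p53, 0 and 6 for transcription factors, 1 and 0 for death receptors, and 0 and 0 for membrane partners. Of all genes tested, 7.24% were higher and 12.4% lower at that p, and 6006 of 10776 had a negative fold change. The median over all genes, -0.03, was 0.01 after quantile normalization, so counts of signs depend in part on scaling. In the list of the apoptosome, caspases and inhibitor of apoptosis proteins all 20 genes were tested, 6 with a positive and 14 with a negative fold change, and the median was -0.10. Casp2, an initiator caspase, averaged 13.1 ± 1.37 FPKM under CBR-5884 and 10.2 ± 0.047 FPKM under solvent (limma adjusted p = 0.198). Birc5, which encodes survivin and is made in dividing cells, averaged 1.04 ± 0.21 FPKM under CBR-5884 and 3.97 ± 1.57 FPKM under solvent (log2 fold change -1.26, limma adjusted p = 0.132, SE 0.24). The groups did not overlap in either gene. Of 16 transcription factors of BCL2 family genes 13 had a negative and 3 a positive fold change, and the median was -0.10. Rela, the NF-κB subunit, averaged 29.7 ± 0.90 FPKM under CBR-5884 and 36.8 ± 3.67 FPKM under solvent (limma adjusted p = 0.169), while Rel averaged 13.3 ± 0.38 FPKM under CBR-5884 and 12.6 ± 0.40 FPKM under solvent (limma adjusted p = 0.477).

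Of 11 genes that act on the turnover or phosphorylation of BCL2 proteins 6 had a positive and 5 a negative fold change, with a median of 0.00. Gsk3b, a kinase that marks MCL1 for degradation, averaged 19.9 ± 0.85 FPKM under CBR-5884 and 16.7 ± 0.77 FPKM under solvent (limma adjusted p = 0.162). Akt1, a kinase that phosphorylates BAD, averaged 105.2 ± 6.82 FPKM under CBR-5884 and 116.0 ± 6.77 FPKM under solvent (limma adjusted p = 0.385). Of 14 genes of p53 and its targets 11 were tested, with a median of -0.03. Ccng1, a cyclin gene that p53 induces, averaged 52.4 ± 1.57 FPKM under CBR-5884 and 46.9 ± 3.17 FPKM under solvent (limma adjusted p = 0.266). Sesn2, a sestrin induced by several stresses, averaged 3.91 ± 0.29 FPKM under CBR-5884 and 5.19 ± 0.081 FPKM under solvent (limma adjusted p = 0.154).

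Of 10 death receptor and ligand genes 7 were tested, with a median of -0.03. Tnf, the gene of the cytokine, averaged 3.24 ± 0.37 FPKM under CBR-5884 and 2.01 ± 0.70 FPKM under solvent (limma adjusted p = 0.244). Tnfrsf1a, which encodes a receptor of that cytokine, averaged 68.5 ± 1.34 FPKM under CBR-5884 and 74.0 ± 2.11 FPKM under solvent (limma adjusted p = 0.288). All 7 genes of proteins that meet BCL2 proteins in the outer membrane were tested, with a median of -0.06 and no pair of groups apart. Vdac3, a channel gene, averaged 36.4 ± 1.22 FPKM under CBR-5884 and 33.7 ± 3.42 FPKM under solvent (limma adjusted p = 0.483). Tomm40, the pore of the protein import machinery, averaged 30.2 ± 3.43 FPKM under CBR-5884 and 35.4 ± 2.72 FPKM under solvent (limma adjusted p = 0.357).

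**Figure D5:**
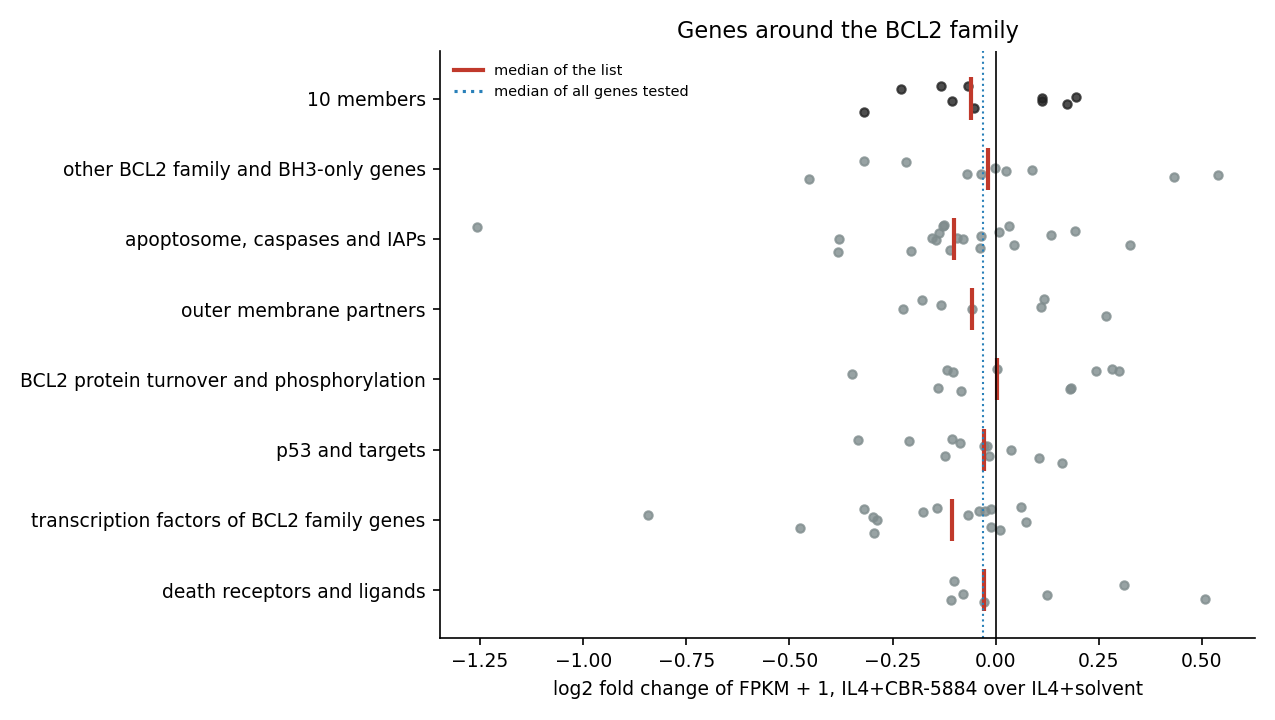
Log2 fold change of FPKM + 1, CBR-5884 over solvent, of every tested gene in the 10 members and 7 lists around them, with the median of each list as a bar and that of all genes (-0.03) as a dotted line. List medians lie between -0.10 and 0.00, Birc5 stands at -1.26, and no gene shown passed the adjusted threshold.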

How the data were processed

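The authors deposited, per library, Cufflinks transcripts with FPKM values, made from single 75 bp reads of a directional kit per the labels. Bowtie2, TopHat2, Cufflinks and mm10 (GRCm38) are named in the submitters' processing notes. Neither tool versions nor the annotation or strand options were found in the sources used here. No normalization between libraries is recorded in the deposited files. Each reference transcript took its gene from its identifier in GENCODE M21 (99.5% matched), or else by position. Assembled transcripts of at least 200 nt were assigned to the gene on their strand that covered at least 50% of their exonic bases. Shorter ones, and any with no such gene, were not summed. Between 64.0% and 70.3% of a library's total FPKM was lost in this way. Left in, very short transcripts would swamp the level of a gene, since FPKM divides by length. Gene FPKM was the sum over assigned transcripts.

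Genes with a mean of at least 1 FPKM were fitted with limma 3.58.1 in R 4.3.3 (lmFit, then two-sided eBayes with trend) on log2(FPKM + 1) over all 5 libraries, which understates the change of low genes. The code was tested on simulated data. Standard errors are those of limma. Members and lists were chosen with earlier results of these data known. Named were all members, all genes of the list of other family genes, and of every other list the gene with the smallest p higher and the one lower. Transcripts were named where they held at least 10% of a gene's FPKM in a library. Whether replicates are separate mice or cultures is not in the labels, so the p-values reflect only library-to-library spread, which may be technical. An FPKM of 0 can be a failed estimate. Sequences are from GENCODE M21 transcripts, and coordinates are 1-based. Alternatives changed the pseudocount, filter, scaling, transcripts summed, variance trend, libraries and replicate block. Protein sequences were not used here.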

Additional observations from a re-analysis of the deposited data

How the results depend on the processing

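No member passed in any of the 18 alternatives, and Bcl2, Mcl1, Bcl2a1d, Bax, Bak1, Bcl2l11 and Bad kept their direction wherever they were tested. The smallest limma adjusted p over these settings was 0.0929 for Bcl2l11, 0.108 for Bax and 0.117 for Bad, and the largest were 0.639, 0.942 and 0.498. Bcl2a1b turned to -0.091 with reference transcripts only and with the most abundant reference transcript, and to -0.0077 with reference transcripts only without CBR-5884 replicate 3. Leaving out 1 library gave -0.0077 to 0.284 for Bcl2a1b, -0.137 to 0.00057 for Bcl2l1 and -0.293 to 0.027 for Bcl2a1a. The cause was not tested. Bcl2l1 moved most of the members, to -0.447 with reference transcripts only, -0.575 with the most abundant one and -0.594 with reference transcripts only without CBR-5884 replicate 3; an assembled transcript holds 57.3% of it in CBR-5884 replicate 5. The numbers of all genes called, 5 higher and 19 lower, were less stable. The higher calls were 3 with a pseudocount of 5, 3 with a filter at a mean of 5 FPKM, 19 with reference transcripts only and 14 with the most abundant one. The lower calls were 33 without a filter, from more genes tested, and 6 with the filter at 5 FPKM. Leaving out 1 library gave 8 to 11 higher and 11 to 78 lower calls. The 78 and 57 came without solvent replicate 3 and replicate 5, where the lone solvent library is assumed to vary like the CBR-5884 libraries. In 2 settings chosen after the data were seen, a length-weighted sum gave 22 and 43 calls, and reference transcripts only without CBR-5884 replicate 3 gave 9 and 11. The mean pro-survival to effector ratio was 3.80 under CBR-5884 and 3.13 under solvent. It was 4.09 and 3.73 with reference transcripts only, and 3.71 and 3.24 with the length-weighted sum. With the most abundant reference transcript the order of the means was reversed, at 4.06 under CBR-5884 and 4.15 under solvent. In the main setting, leaving out 1 library gave 3.45 to 4.01 under CBR-5884 and 3.10 to 3.16 under solvent. With reference transcripts only in the denominator, the mean share of Bax-201 was 100% under CBR-5884 and 86.7% under solvent. The solvent mean rests on replicate 3, at 73.5%, since replicate 5 was at 100%.

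Numbers 3 and 5 occur in both groups. Same-numbered libraries correlated at 0.0704 and 0.0821 in their deviations from the group means. Between CBR-5884 replicate 3 and solvent replicate 5 it was -0.0704, and between CBR-5884 replicate 5 and solvent replicate 3 -0.0821. The deviations of 2 solvent libraries mirror each other, so these values cannot decide whether the numbers pair the libraries. With the replicate number as a block, 2 genes were called higher and 1 lower, and no member was called. The replicate block gave log2 fold changes of -0.34 for Bad, -0.23 for Bax and 0.20 for Bcl2l11. These equal the values without CBR-5884 replicate 4, which has no solvent library of its number, so their direction is not a further check. With 2 and 3 libraries, intervals of low genes such as Bcl2a1a (-0.58 to 0.31) leave room for changes larger than those seen.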
